A study of Bos taurus with 4 samples.

Results

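Cattle chromosomes 18, 19, 23, 25 and 29 carried 1032 open regions past their first 1000000 bp, out of 19749 open regions in the whole series and 12079 on the 29 autosomes under the same start limit. A region here is a stretch where at least 1 of 4 ATAC-seq libraries had a called peak, after peaks that overlapped by 1 bp or more had been merged, and it is called open in the libraries that had the peak. A merged region was kept when its start, counted from 0, was 1000000 or later. ATAC-seq cuts accessible DNA with a transposase, so that fragments pile up where chromatin is open.

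The libraries came from the rumen, the large fermentation chamber of the ruminant stomach, of wild-type (WT) male cattle. There were 2 libraries of fetuses at 90 days, here fetal 1 and fetal 2, and 2 libraries of adults at 2 years, here adult 1 and adult 2. No treatment or altered allele is given for any group. The labels' account of collection describes 2 male and 2 female fetuses of 13 to 16 cm crown-rump length, from slaughtered Holstein cows. It does not say which fetus gave which library, nor does it describe the adults. Nothing in the labels places the 2 libraries of a group in separate animals, so the spread between them may be technical. Whole rumen holds epithelium, muscle, vessels and immune cells, and in a bulk sample fewer cells of a type and less open chromatin per cell cannot be told apart. No peak was assigned to a gene, since no source names the build of the peak lists, so markers of rumen cell types were not checked. The whole lists held 1878 and 2788 peaks in fetal 1 and fetal 2 and 8795 and 13934 in adult 1 and adult 2. Of these 422, 741, 3828 and 7662 lay on the autosomes past the start limit. Read totals were not analysed here.

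Genes are spread unevenly over mammalian chromosomes. Chromosomes dense in genes are known to lie towards the centre of the nucleus and to hold more of the chromatin that is accessible and transcribed. In cattle, chromosome 23 holds the major histocompatibility complex with BOLA-DRB3, which presents peptides to helper T cells. Chromosome 19 holds GH1, the growth hormone gene, and the type I keratins KRT13 and KRT15, filament proteins of stratified epithelia such as the rumen lining. Chromosome 25 holds the alpha-globin gene HBA, chromosome 29 the calcium-dependent protease CAPN1, and chromosome 18 the pigment receptor MC1R.

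The name gene-rich held in the RefSeq gene table of assembly ARS-UCD2.0. Chromosome 19 had 1192 protein-coding genes and chromosome 18 had 1232, or 18.8 per Mb of the length reached by the peak lists in each case. Chromosome 25 followed with 705 genes (16.7 per Mb), chromosome 23 with 703 (13.4) and chromosome 29 with 641 (12.6). These were ranks 1 to 5 of the 29 autosomes, and the other 24 lay between 4.07 and 11.6 genes per Mb. Together the 5 chromosomes carried 22.1% of the autosomal protein-coding genes, counted over whole chromosomes. They made up 11.0% of the autosomal length past the start limit. The gene counts use the table's chromosome names only, and the build of the peak lists may differ from that of the table.

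These chromosomes had fewer open regions per length than the rest. There were 3.82 regions per Mb on the 5 chromosomes and 5.05 on the other 24, a ratio of 0.757 (95% interval 0.709 to 0.806, exact conditional binomial p = 6.51e-19). Chromosome 25, with 118 regions (2.86 per Mb), was the sparsest of the 29 autosomes, and chromosome 19, with 202 (3.24 per Mb), came next. Both lay below the range of the other 24 autosomes, from 3.55 to 6.07. Chromosome 23 with 214 regions (4.16 per Mb), chromosome 18 with 277 (4.28) and chromosome 29 with 221 (4.42) lay within that range. Of the other 24, chromosomes 22 (3.55 per Mb), 26 (3.83) and 28 (3.83) were sparser than chromosomes 23, 18 and 29. Lengths run from the start limit to the furthest peak of any list. These intervals and p-values treat peaks as independent and cover counting error only, while single chromosomes differ by more than that.

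In the full lists the shortage lay in the adult libraries. Adult 1 had 233 peaks on the 5 chromosomes, or 0.863 per Mb, against 1.64 per Mb on the other 24, a ratio of 0.525 (0.458 to 0.599, exact test, adjusted p = 5.05e-25). Adult 2 had 700 peaks, or 2.59 per Mb against 3.19, a ratio of 0.814 (0.752 to 0.880, exact test, adjusted p = 2.32e-07). Both adult ratios were below 1, and their intervals did not overlap, so the adult libraries differed from each other by more than counting error. The adjustment is Benjamini-Hochberg over the 4 libraries.

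No such shortage was measured in the fetal libraries. Fetal 1 had 53 peaks on the 5 chromosomes, 0.196 per Mb against 0.169, a ratio of 1.16 (0.855 to 1.55, exact test, adjusted p = 0.311). Fetal 2 had 99 peaks, 0.367 per Mb against 0.294, a ratio of 1.25 (1.0002 to 1.55, exact test, adjusted p = 0.0607). Neither passed the threshold of 0.05. Over the 4 libraries the mean ratio was 1.21 ± 0.0606 in fetal rumen and 0.670 ± 0.205 in adult rumen (SD, n = 2 each), with every fetal ratio above every adult one. With 2 libraries against 2, the exact two-sided permutation p of 0.333 is the lowest possible. The split between the groups was not seen in lists of equal length, made of the 422 strongest autosomal peaks of each library past the start limit. There the ratios were 1.16 and 0.991 in the fetal libraries and 0.755 and 1.19 in the adult ones. Neither adult ratio passed the exact test there (0.521 to 1.06 in adult 1 and 0.876 to 1.58 in adult 2, adjusted p = 0.415 each). With no start limit both fetal ratios passed the test, at 1.57 in fetal 1 and 1.56 in fetal 2 (exact test, adjusted p = 0.000424 and 7.84e-06).

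**Figure D1:**
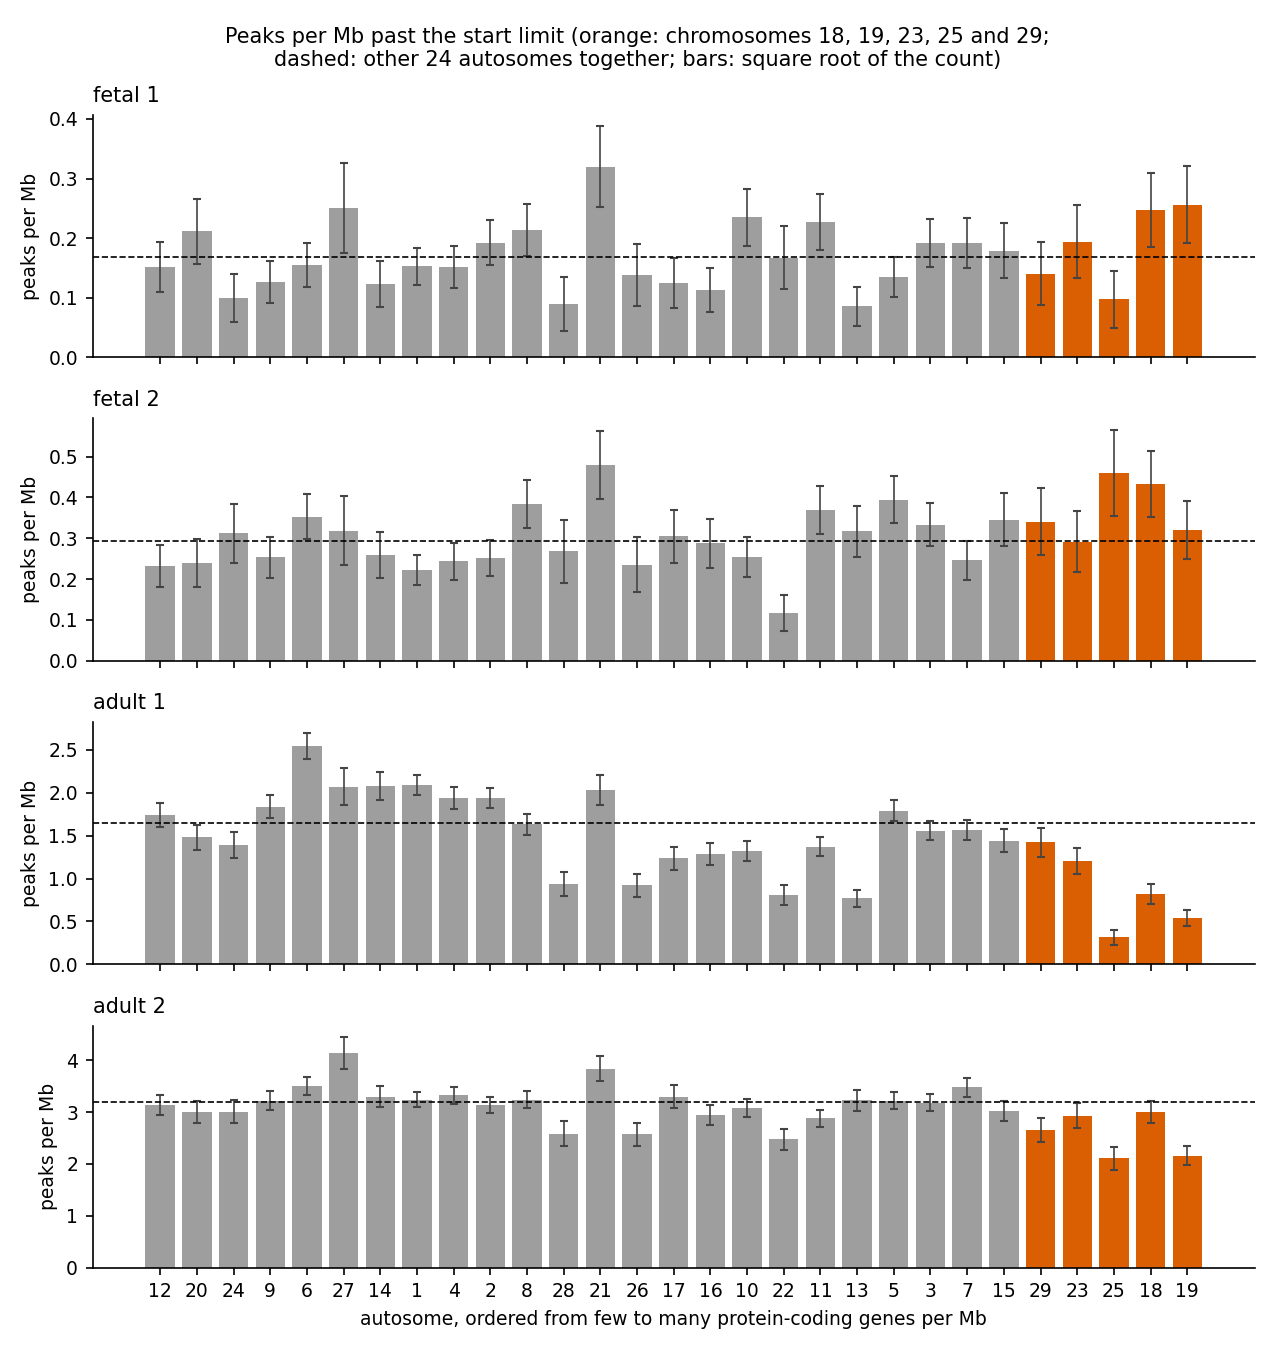
Peaks per Mb past the start limit (y axis) in each of the 29 autosomes, ordered from few to many protein-coding genes per Mb (x axis), with 1 panel per library. Orange bars are the 5 gene-rich chromosomes, the dashed line is the density of the other 24 together, and error bars are the square root of the count over the length. In both adult panels chromosomes 25 and 19 have the lowest bars, at 0.315 and 0.545 peaks per Mb in adult 1 and 2.11 and 2.16 in adult 2.

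By number, adult rumen had more peaks on these chromosomes. The density was 0.282 ± 0.121 peaks per Mb in fetal rumen and 1.73 ± 1.22 in adult rumen (SD, n = 2 each), and each adult library lay above each fetal one (exact two-sided permutation p = 0.333). Background pileup was also higher in the adult libraries. The background pileup of a list is the expected number of fragments found most often at its peaks, and bases away from peaks were not measured. It was 0.495 and 0.426 in fetal 1 and fetal 2 and 1.37 and 1.61 in adult 1 and adult 2. Its part in the difference was not tested. In the lists of equal length the 5 chromosomes had 53 and 46 fetal and 36 and 54 adult peaks.

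Single chromosomes differed in how far they followed this picture, as the plot of density ratios shows. Of 20 tests of 1 chromosome in 1 library against the other 24 autosomes, 6 passed an adjusted p of 0.05, all of them lower and all in adult libraries. On chromosome 25 fetal 1 had 4 peaks, fetal 2 had 19, adult 1 had 13 and adult 2 had 87. Its ratio was 0.191 in adult 1 (0.102 to 0.327, exact test, adjusted p = 2.15e-14) and 0.661 in adult 2 (0.529 to 0.816, adjusted p = 0.000227). Fetal 2, whose list was far shorter, thus had more peaks there than adult 1, at 1.46 times the number. On the other 24 autosomes the number in fetal 2 was 0.106 to 0.413 times that in adult 1. Chromosomes 19 (0.588 times) and 18 (0.528 times) also lay above that range, while chromosomes 23 (0.242) and 29 (0.239) lay within it. No interval was computed for these values, and that of chromosome 25 rests on 19 and 13 peaks.

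On chromosome 19 fetal 1 had 16 peaks, fetal 2 had 20, adult 1 had 34 and adult 2 had 135. Its ratio was 0.331 in adult 1 (0.229 to 0.464, exact test, adjusted p = 1.31e-13) and 0.679 in adult 2 (0.568 to 0.805, adjusted p = 1.28e-05). The density of fetal 1 on chromosome 19, 0.256 peaks per Mb, was the second highest of the 29 autosomes. That of fetal 2, 0.320 peaks per Mb, had rank 11 from the top. The density of both adult libraries was the second lowest. The fetal ratios of 1.52 and 1.09 did not pass the exact test (adjusted p = 0.231 and 0.707).

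Chromosome 18 was low in adult 1 only by this test. The fetal libraries had 16 and 28 peaks on it and the adult libraries 53 and 194. Its ratio was 0.498 in adult 1 (0.372 to 0.653, exact test, adjusted p = 1.62e-07) and 0.942 in adult 2 (0.812 to 1.09, adjusted p = 0.582), and these intervals did not overlap. The window of 1000000 bp that starts at 57000001 held 15 of the adult 1 and 38 of the adult 2 peaks of chromosome 18. The ratios of chromosome 18 without that window were not computed. Chromosome 23 had 10 and 15 fetal peaks and 62 and 151 adult peaks. Its ratio was 0.732 in adult 1 (0.560 to 0.941, exact test, adjusted p = 0.0432) and 0.920 in adult 2 (0.778 to 1.08, adjusted p = 0.489). Chromosome 29 had 7 and 17 fetal and 71 and 133 adult peaks, and none of its ratios, from 0.830 in fetal 1 to 1.16 in fetal 2, passed the test. Without chromosomes 19 and 25, an alternative chosen after the data were examined, the other 3 gave 0.681 in adult 1 (exact test, adjusted p = 3.08e-07) and 0.903 in adult 2 (adjusted p = 0.0632).

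Over all 29 autosomes the density of adult 1 fell with the number of genes per Mb, with a Spearman rho of -0.63, and that of adult 2 likewise with -0.46. The rho was 0.16 for fetal 1 and 0.45 for fetal 2. Without the 5 gene-rich chromosomes the values over 24 autosomes were -0.47, -0.16, 0.09 and 0.30 for adult 1, adult 2, fetal 1 and fetal 2. The chromosomes of a library share its depth, and these values are descriptions.

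By strength, the adult shortage passed the test among weak peaks of both adult libraries and middling peaks of adult 1, while strong peaks were few. The −log10 q of a peak, the authors' measure of its strength, was under 3 for 132 of the adult 1 peaks and 490 of the adult 2 peaks on the 5 chromosomes. In that range the density ratio was 0.490 in adult 1 (0.408 to 0.584, exact test, adjusted p = 1.32e-17) and 0.797 in adult 2 (0.724 to 0.874, adjusted p = 3.27e-06). Between 3 and 10 it was 0.543 in adult 1 (exact test, adjusted p = 4.80e-08) and 0.85 in adult 2 (0.727 to 0.989, adjusted p = 0.0745). At 10 or more adult 1 had a ratio of 0.790 (0.473 to 1.25) and adult 2 one of 0.941 (0.583 to 1.45), from 20 and 23 peaks, and neither passed the exact test (adjusted p = 0.514 and 0.914). The ratio of the weak peaks lay within the interval of the strong ones in each adult library, so these counts do not show that strong peaks were spread differently.

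Weak fetal peaks lay above 1 by value. Under 3 the ratio was 1.43 in fetal 1 (1.01 to 1.98) and 1.31 in fetal 2 (1.01 to 1.69), both with an adjusted p of 0.0745 by the exact test. At 10 or more it was 0.463 and 0.458, from only 2 and 3 peaks, with intervals from 0.0539 to 1.80 and from 0.0916 to 1.41. No fetal ratio passed 0.05 in any range after adjustment, while the ratios under 3 had unadjusted exact p of 0.0373 and 0.0346. The difference between ranges of strength was not tested.

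**Figure D2:**
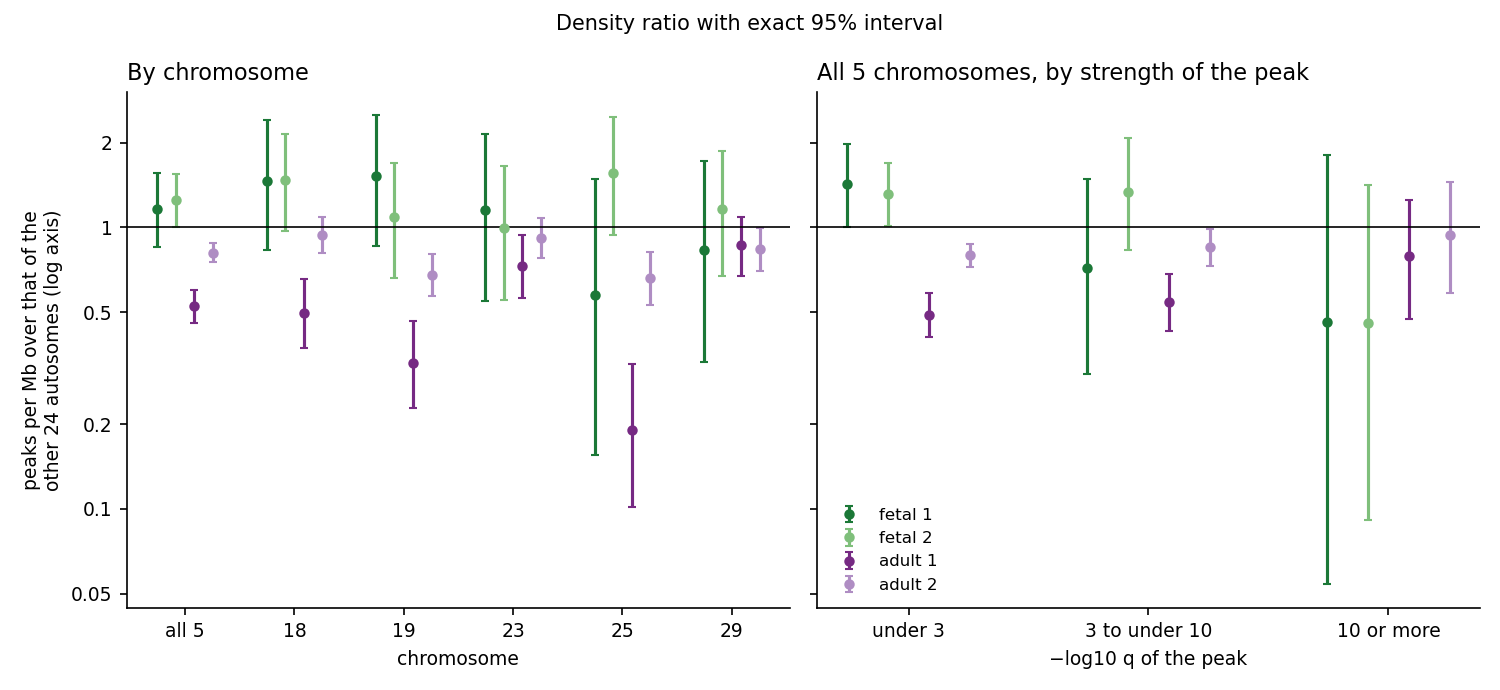
Peaks per Mb divided by that of the other 24 autosomes (y axis, log scale; the line at 1 is equal density), with exact 95% intervals, for each library. The left panel gives the 5 chromosomes together and singly, and the right panel gives all 5 by the −log10 q of the peaks. Adult 1 has the lowest points on chromosomes 19 and 25, at 0.331 and 0.191, and the adult points move nearer to 1 from weak to strong peaks.

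With peaks of −log10 q of at least 5 alone, the chromosomes parted further. Chromosome 23 then had 15 such peaks in adult 1 and 23 in adult 2, with ratios of 1.64 (0.912 to 2.75, exact test, adjusted p = 0.223) and 2.12 (1.33 to 3.22, adjusted p = 0.0244). Chromosome 19 had 3 in each adult library, with ratios of 0.271 (0.0557 to 0.799, exact test, adjusted p = 0.0817) and 0.228 (0.0468 to 0.670, adjusted p = 0.0254). Chromosome 23 in adult 2 and chromosome 19 in adult 2 were the only ones of the 20 tests to pass at that strength. On chromosome 23 the stretch of 44697 bp from 21751373 to 21796069 held 12 peaks of each adult library at any strength. Outside that stretch, adult 1 had peaks of −log10 q of at least 5 only in the regions starting at 2643481, 25959330, 30326065 and 38632054. Most of the adult 1 peaks behind the ratio of 1.64 thus lay in the stretch. In adult 2 peaks of that strength lay both inside and outside it. The peaks of chromosome 23 were thus not independent, and its ratios without that stretch were not computed. At −log10 q of at least 5 the 5 chromosomes together had ratios of 0.736 and 0.900 in the fetal libraries. In the adult libraries they were 0.753 and 1.11, and none of these passed.

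Peaks on the 5 chromosomes were much like those elsewhere in size. Median widths were 237 and 149 bp in fetal 1 and fetal 2 and 88.0 and 102.5 bp in adult 1 and adult 2. On the other 24 they were 237, 147, 85.0 and 104 bp. The narrowest peak also differed by library, at 187, 112, 67 and 81 bp on the 5 chromosomes. Widths of different libraries are therefore given side by side only. The median fold enrichment, the authors' ratio of pileup to local background at the summit, was 4.39, 4.62, 4.25 and 4.02 in the same order, against 4.6, 4.69, 4.22 and 3.97. The 95% intervals of the medians on the 5 chromosomes and the other 24 overlapped in each library for both measures. The median −log10 q was 2.05 (1.37 to 2.37), 2.26 (1.65 to 2.56), 2.64 (2.32 to 2.97) and 2.49 (2.39 to 2.58), against 2.37, 2.53, 2.58 and 2.43. No test was run on these medians. The median pileup was 6 fragments in both fetal and 10 in both adult libraries, on the 5 chromosomes and on the others alike, so a typical peak stood 1 or 2 fragments above the lowest pileup called, which was 5 in fetal and 8 in adult libraries.

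Median widths of single chromosomes stayed close together, while median −log10 q varied more in the fetal libraries. For fetal 1 the width ran from 201.5 (from 4 peaks on chromosome 25) to 252.5 bp and for fetal 2 from 138.5 to 165 bp. For adult 1 it ran from 83 to 88.0 bp and for adult 2 from 97.0 to 106.5 bp. The median −log10 q ran from 1.37 to 2.24 in fetal 1 and from 1.65 to 2.73 in fetal 2. It ran from 2.43 to 3.10 in adult 1 and from 2.33 to 2.59 in adult 2. On chromosome 25 the median fold of the 13 peaks of adult 1 was 4.64 (95% interval 4.11 to 19.4).

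Most regions were seen in a single library. Of the 1032 regions 995 (96.4%, Wilson 95% interval 95.1 to 97.4) carried a peak in 1 library alone, and the share over all 29 autosomes was 97.2%. The other 37 were open in 2 or more libraries (3.59%, background 2.77%). Adult 2 alone accounted for 662 of them, adult 1 alone for 196, fetal 2 alone for 89 and fetal 1 alone for 48. Adult 1 alone made up 19% of the regions against 29.6% on the other 24, a difference of -10.6 points (Newcombe 95% interval -13.0 to -7.95). Regions open in fetal libraries only made up 13.3% against 7.51%, a difference of 5.76 points (3.76 to 8.02). These shares restate the densities above for regions.

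**Figure D3:**
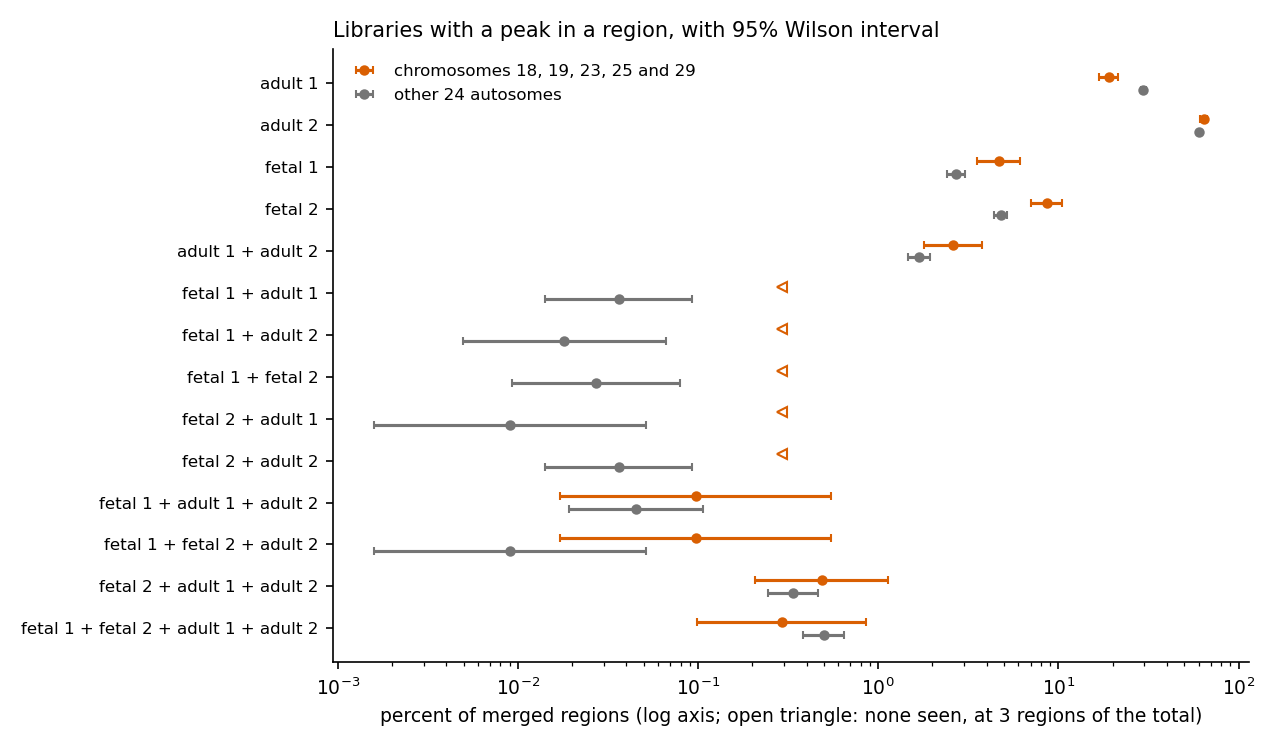
Percent of merged regions (x axis, log scale) with each pattern of libraries (y axis), on the 5 gene-rich chromosomes in orange and on the other 24 autosomes in grey, with 95% Wilson intervals. Open triangles mark patterns with no region on the 5 chromosomes, at 0.291%. Adult 1 alone is rarer on the 5 chromosomes (19% against 29.6%), and fetal 1 alone and fetal 2 alone are more frequent (4.65% against 2.70%, and 8.62% against 4.79%).

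Recurrence in replicates was rare here as elsewhere. Both adult libraries were open at 36 regions (3.49%, 2.53 to 4.79), against 2.64% over all 29 autosomes and 2.56% on the other 24. The difference to the other 24 was 0.927 points (Newcombe 95% interval -0.0809 to 2.26). That interval excluded 0 with no start limit (3.71 points, 2.25 to 5.45), without fetal 2 (1.14, 0.0396 to 2.59), without chromosome 19 (1.66, 0.445 to 3.27) and without chromosome 29 (1.26, 0.101 to 2.84). It excluded 0 with the opposite sign when peaks within 100000 bp were joined (-8.40, -11.0 to -5.43). The sign was also opposite without adult 1 (-5.66, -8.40 to -3.20) and without adult 2 (-18.2, -23.3 to -13.3). There the remaining adult library alone stands for its group. Per length, regions open in both adult libraries were as frequent on the 5 chromosomes as elsewhere by value. Their densities were 0.133 and 0.129 per Mb, a ratio of 1.03 (0.707 to 1.46, exact conditional binomial p = 0.858). Both fetal libraries were open at 4 regions (0.388%, background 0.522%), and all 4 libraries at 3 (0.291%, background 0.48%). Both adult and no fetal library were open at 27 regions (2.62%, background 1.76%), 0.933 points more than on the other 24 (0.0807 to 2.12). This share depends on the total of regions, of which adult 1 alone made up 19% here and 29.6% on the other 24. The density per Mb of the 27 was not tested, and 7 of them lay in 1 group on chromosome 18. No region was open in both fetal and no adult library, with a Wilson 95% upper limit of 0.371%, and over the 29 autosomes there were 3 (0.0248%). Regions open in at least 1 library of each group numbered 10 (0.969%, background 0.985%).

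Shares of the peaks of 1 library depend on how many peaks it had, and adult 1 had few on these chromosomes. Of its 233 peaks there, 37 overlapped a peak of adult 2 (15.9%, 11.7 to 21.1), against 8.79% on the other 24, a difference of 7.09 points (2.84 to 12.4), while regions open in both adult libraries were as frequent per Mb by value, as given above. Among its peaks with −log10 q from 3 to 10 the shares were 19.8% and 8.94%, a difference of 10.8 points (3.39 to 20.9). At 10 or more 16 of 20 recurred, against 178 of 205 elsewhere. From the side of adult 2, 36 of 700 peaks overlapped adult 1 (5.14%, 3.74 to 7.04, against 4.29%), a difference of 0.848 points (-0.644 to 2.80). The strong peaks of adult 2 recurred less often on the 5 chromosomes, at 17 of 23 against 178 of 198, a difference of -16.0 points (-36.7 to -1.56).

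In fetal rumen 4 of the 53 peaks of fetal 1 overlapped fetal 2 (7.55%, 2.97 to 17.9, against 15.7% elsewhere) and 4 of the 99 peaks of fetal 2 overlapped fetal 1 (4.04%, 1.58 to 9.93, against 10.1%). The intervals of both differences held 0. None of the 43 peaks of fetal 1 and none of the 72 of fetal 2 with −log10 q under 3 was found in the other, nor was any of the 244 and 444 elsewhere. Of the 2 and 3 strong fetal peaks at 10 or more, each was found in the other fetal library and in both adult ones.

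The 36 regions open in both adult libraries were spread unevenly. Chromosome 23 had 15, or 7.01% of its regions (4.29 to 11.2), chromosome 18 had 11 (3.97%, 2.23 to 6.97), chromosome 29 had 5 (2.26%), chromosome 25 had 4 (3.39%) and chromosome 19 had 1 (0.495%, 0.0874 to 2.75). The density of chromosome 19, 0.0160 per Mb, was the lowest of all autosomes, followed by chromosome 22 at 0.0167. Chromosome 23, at 0.291 per Mb, had rank 4 from the top, and the highest of the others was chromosome 21 at 0.566. These regions were wider than those of 1 library, with a median of 181.5 bp (141 to 222) against 103 bp (100 to 106). The merging of peaks from different lists adds to that width.

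Many of them lay close together. Chained within 100000 bp, a distance chosen after the data were examined, the 36 regions formed 16 groups, of which 5 held 2 or more regions and 25 of the 36. On the other 24 autosomes 283 regions formed 147 groups. Groups per Mb had a ratio of 0.881 (0.491 to 1.48, exact conditional binomial p = 0.708), below 1 where the ratio of single regions was above 1.

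The group with the most regions open in both adult libraries lay on chromosome 23 from 21751373 to 21796069. In 44697 bp it held 14 regions, 9 of them open in both adult libraries and 5 of these with a fetal peak as well. Fetal 1 had 2 peaks there, fetal 2 had 5, and each adult library had 12. The region from 21786490 to 21786781 was open in all 4, with folds of 7.40 and 9.49 in the fetal and 12 and 15 in the adult libraries. Its pileups were 17 fragments in each fetal library, 41 in adult 1 and 60 in adult 2. At its right edge the region from 21795856 to 21796069, chosen like the next after its values were seen, was open in adult libraries only, with a fold of 20.9 in adult 1 (49 fragments) and 12.6 in adult 2 (34 fragments). The region from 21791857 to 21792113 lacked a peak in fetal 1 alone, with 8.07 in fetal 2, 11.6 in adult 1 and 11.8 in adult 2. A stretch of 82 bp from 21783804 to 21783885 carried a peak in adult 1 alone, with a fold of 14.0 and 48 fragments over an expected 2.5. It was the strongest single-library region of chromosome 23. The strongest adult-only region of the chromosome lay elsewhere, from 38632054 to 38632185, with folds of 17.4 and 19.6 in adult 1 and adult 2 from 41 and 57 fragments.

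The group on chromosome 18 was broader and weaker. From 57117018 to 57337952, over 220935 bp, it held 37 regions, of which 7 were open in both adult libraries. Adult 1 had 12 peaks in it and adult 2 had 32, while neither fetal library had any. The folds of the 7 ran from 3.11 to 7.10 in adult 1 and from 2.85 to 7.68 in adult 2. The window of 1000000 bp that starts at 57000001 held 49 regions, where the median window of chromosome 18 held 3. The last of 5 equal parts of chromosome 18 held 39.7% of its regions. The strongest adult-only region of the chromosome lay in this group, from 57337779 to 57337952, with a fold of 7.10 in adult 1 and 6.39 in adult 2, with 20 and 26 fragments. The strongest single-library region of the chromosome, from 57198375 to 57198629, lay in the same group, with a fold of 8.05 and 20 fragments in adult 2.

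Chromosome 18 also had the region with the highest −log10 q of the 5 chromosomes in every library. From 59225169 to 59226161, 993 bp wide, it was open in all 4 libraries. Its fold was 16.3 and 18.6 in fetal 1 and fetal 2 and 27.1 and 24.3 in adult 1 and adult 2, on pileups of 110, 109, 392 and 409 fragments. The expected pileup around it was also high, at 5.79, 4.90, 13.5 and 15.9 fragments in the same order, far over the backgrounds of 0.426 to 1.61. Each fold matched pileup plus 1 over background plus 1, a form that shrinks it where coverage is low. Fetal and adult folds are therefore given side by side only.

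Chromosome 25 had the fewest regions and the highest adult folds of the 5 chromosomes. A pair of neighbours open in both adult and no fetal library lay from 35733511 to 35733776 and from 35733891 to 35734200. Their pileups were 76 and 79 fragments in adult 1 and 173 and 186 in adult 2, and the second had folds of 33.8 and 43.9. Another region, from 25034757 to 25034940 and chosen after its values were seen, was open in fetal 2 (fold 7.5), adult 1 (19.4) and adult 2 (16.9). The strongest single-library region, from 8117434 to 8117503, had a fold of 12.3 in adult 1 with 30 fragments.

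Chromosome 29 had a group of 4 regions open in both adult libraries from 5538945 to 5567860, with folds from 4.64 to 5.94 in adult 1 and from 3.64 to 5.14 in adult 2 and no fetal peak. Its strongest adult-only region, from 5566687 to 5566889, had 5.06 and 4.98. The region from 13657245 to 13657733 was open in all 4, at folds of 8.29 and 9.57 in fetal and 17.9 and 14.5 in adult rumen. In adult 1 alone, the region from 4794556 to 4794631 had a fold of 13.5 and 32 fragments.

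Chromosome 19 had no region open in all 4 libraries. Its only region open in both adult libraries, from 61270818 to 61270931, was weak, with a fold of 4.64 in adult 1 and 4.87 in adult 2. The region from 57081360 to 57081950, chosen after its values were seen, was open in both fetal libraries (6.51 and 7.01) and in adult 2 (5.37), with 10, 9 and 13 fragments, and was the only one of the 1032 with that pattern. The strongest single-library region, from 31738783 to 31738882, had a fold of 7.66 in adult 2.

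**Figure D4:**
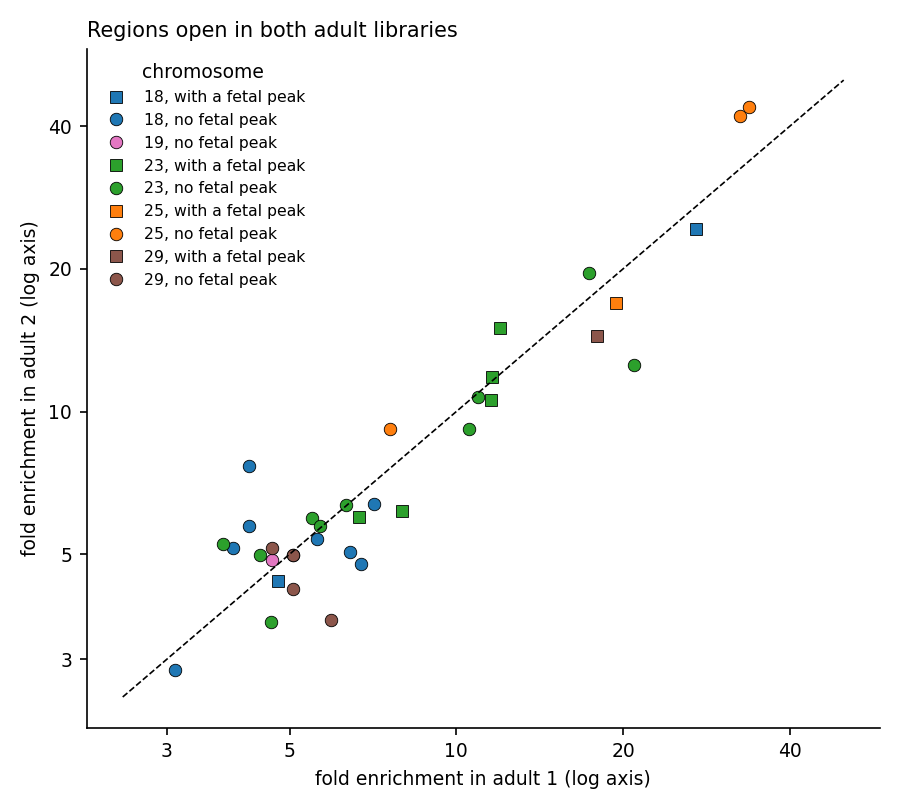
Fold enrichment in adult 1 (x axis) and adult 2 (y axis), both on log scales, at the 36 regions open in both adult libraries, coloured by chromosome. Squares have a peak in at least 1 fetal library and circles have none, and the dashed line marks equal folds. The points follow the line, and the pair of chromosome 25 stands at the top with 43.9 and 41.9 in adult 2.

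At regions kept because both adult libraries had a peak, the folds of the 2 libraries rose together. Regions with a peak in 1 adult library alone are not included, so these values do not describe them. Over the 36 regions the Spearman rho was 0.81 and the Pearson r of log2 folds 0.94, as a description, since the regions share groups and libraries. The fold was higher in adult 1 at 20 of the 36, and the median fold was 6.38 in adult 1 and 5.98 in adult 2. On the other 24 autosomes these medians were 5.51 and 5.22 over 283 regions, with a rho of 0.93 and an r of 0.95.

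Regions of the 5 chromosomes were set further apart than those elsewhere, with a median gap of 169160 bp against 128788 bp. The share within 10000 bp of a neighbour was 16.2% (14.1 to 18.6) against 14.3% (13.6 to 14.9). The start limit left out 12 regions on chromosome 18, 6 on 19, 35 on 23, 26 on 25 and 9 on 29. The nearest regions on either side of it were single-library regions with folds from 3.45 to 4.22 outside and from 3.55 to 5.37 inside.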

How the data were processed

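The authors deposited 1 peak list per library. In narrow-peak format, each line of the deposited lists gives a fold enrichment (a ratio of pileup to local background), a −log10 p, a −log10 q, a score that follows −log10 q, and a summit. The lowest −log10 q was 1.30 to 1.31. The submitters' processing notes name FastQC 0.11.5, Trimmomatic 0.36, Bismark 0.16.3 and Bowtie2. Neither peak caller nor genome build was given in the sources used here, and the labels' protocols describe bisulfite libraries.

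Peaks were merged and counted with Python 3.11.15, pandas 2.3.3 and scipy 1.17.1. Coordinates are 1-based. Densities were compared by an exact conditional binomial test with 95% intervals, two-sided, adjusted by Benjamini-Hochberg over 4 (libraries), 20 (chromosomes by library) or 12 (strengths by library) tests. Shares carry Wilson and differences Newcombe intervals, medians order-statistic intervals. The floor of a count of 0 is 3 counts. Pileups were recovered as whole numbers that match fold and −log10 p within a relative 0.0001, for 100% of peaks used. The code was tested on simulated data. Fragments are not independent molecules, so intervals cover counting error only.

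Named regions are, per chromosome, the strongest open in all 4, in both adult only and in 1 library, by the lowest fold, and any open in both fetal only. Members and tests were chosen with earlier results of these data known. No sequence is printed, as no genome was used here.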

Additional observations from a re-analysis of the deposited data

Results flagged for a closer look

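The density of peaks on the 5 chromosomes over that of the other 24 autosomes lay above 1 in both fetal libraries (1.16 in fetal 1 and 1.25 in fetal 2) and below 1 in both adult libraries (0.525 in adult 1 and 0.814 in adult 2). In the full lists the ratios thus lay on opposite sides of 1, though neither fetal ratio passed the exact test (adjusted p = 0.311 and 0.0607). With equally long lists the ratios were 1.16 and 0.991 in the fetal and 0.755 and 1.19 in the adult libraries, and with −log10 q of at least 5 they were 0.736 and 0.900 against 0.753 and 1.11, so that the groups were no longer split. The difference between the groups reached the smallest exact permutation p that 2 against 2 libraries allow, 0.333, and so could not pass 0.05. Background pileup differed between the groups as well, and its part was not tested.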

How the results depend on the processing

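No paired analysis was possible because fetal and adult libraries are tied by nothing in the labels and the counts come from no model with a block. Under other settings 124 values were kept, 23 reversed, 11 lost and 11 gained significance, and 33 moved. A ratio or difference was kept when its direction and its side of the threshold held. For the share difference the threshold was whether its interval excluded 0. A count was kept within a fixed factor of the reported count, and a median within the SD of its group's 2 reported medians. Counts and medians beyond these limits are those that moved. The density ratio of adult 1 stayed below 1 under every setting run. With peaks of −log10 q of at least 5, which leaves fewer peaks, the density ratios were 0.736, 0.900, 0.753 and 1.11 in fetal 1, fetal 2, adult 1 and adult 2, none past the threshold, and 2 of 20 chromosome tests passed. Regions open in both adult libraries were then 20 and single-library regions 59. The share of the former differed by -5.66 points from the other 24, their density ratio was 0.848, and chromosome 23 in adult 1 stood at 1.64. The median width became 382, 133.5 and 130 bp in fetal 1, adult 1 and adult 2. Median folds became 7.40, 7.38, 7.39 and 5.80, and median −log10 q 9.60, 7.31, 11.2 and 7.43. With equally long lists the ratios of fetal 2, adult 1 and adult 2 were 0.991, 0.755 and 1.19, fetal minus adult density was 0.0167 peaks per Mb, and 3 of 20 chromosome tests passed. There were then 20 regions open in both adult libraries and 134 in a single one, a share difference of -4.22 points, a density ratio of 0.866, and 1.65 for chromosome 23 in adult 1. Joining peaks within 1000 bp gave 5 regions open in all 4 libraries and a both-adult density ratio of 0.995. Joining within 100000 bp gave 81 regions open in both adult, 7 in both fetal, 6 in all 4 and 515 in a single library, with a share difference of -8.40 points and a density ratio of 0.488. With no start limit the fetal ratios were 1.57 and 1.56, regions open in both adult, both fetal and all 4 libraries were 85, 26 and 23, their both-adult share differed by 3.71 points, the both-adult density ratio was 1.54, chromosome 23 in adult 1 stood at 1.13, and 11 of 12 tests by strength passed. The ratio of fetal 2 passed the threshold with a start limit of 5000000 bp (1.28), with length counted in windows (1.27), without chromosome 19 (1.3) and without chromosome 23 (1.31). The both-adult share difference excluded 0 without chromosome 19 (1.66 points) and without chromosome 29 (1.26 points). The both-adult density ratio was 0.941 without chromosome 18 and 0.743 without chromosome 23, where 21 such regions were left. Without chromosomes 19 and 25 the ratio of adult 2 was 0.903. Leaving out 1 library at a time, where the remaining library alone stands for its group, gave 36 to 699 regions open in adult, 4 to 98 in fetal, 3 to 8 in all and 361 to 948 in a single library. The share difference then ran from -18.2 to 1.14 points, the both-adult density ratio from 0.529 to 1.03, and fetal minus adult density from -2.31 to -0.582 peaks per Mb. Joining within 100000 bp, leaving out chromosomes 19 and 25 together, and the alternatives for single chromosomes, for strengths and for fetal against adult density were chosen after the data were examined. Beyond fewer peaks, libraries or chromosomes, or merged regions, the cause of these changes was not tested. Peaks near the lowest pileup called limit the weak regions.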
